A study of Mus musculus with 6 samples.

Results

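The genes described here are 8 surface protein genes of CD8+ T cells that stand in a pair of mouse gene clusters. There are 4 members of the Ly6 family, Ly6a, Ly6c1, Ly6c2 and Ly6e, and 4 of the Ms4a family, Ms4a4b, Ms4a4c, Ms4a6b and Ms4a6c. They were chosen by symbol, as Ly6 genes and Ms4a genes that T cells express, and matched to NCBI gene numbers, which gave 8 of the 16749 genes listed in at least 1 library. The sequenced RNA was that of CD8+ T cells sorted from C57BL/6 iLN (the submitters' abbreviation), and according to the series title the mice bore tumors and had been given oxaliplatin, a platinum drug that damages DNA. The 3 KO libraries came from mice labelled Cd4creId2f/f, in which Cre recombinase under the Cd4 promoter acts on a floxed Id2 gene. The 3 WT libraries came from mice labelled Id2f/f, which carry the same floxed Id2 and no Cre. The Cd4 promoter is active in developing T cells before the CD4 and CD8 lineages part, so Id2 is lost in both lineages and not in CD8+ cells alone. Because WT mice had no Cre, effects of Cre and of Id2 loss cannot be told apart. The labels name no animal for any sample, so the p-values reflect the spread among these samples only, and that spread may be technical.

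Ly6 proteins are small, disulfide-rich and held to the outer cell membrane by a glycosylphosphatidylinositol (GPI) anchor. Ly6a is the stem cell antigen Sca-1, which activated and memory T cells also carry and which interferons induce, and Ly6C, encoded by Ly6c1 and Ly6c2, marks memory CD8+ T cells and inflammatory monocytes. Ly6e, also called TSA-1 or Sca-2, is known from immature thymocytes and is interferon-induced. Ms4a proteins cross the membrane several times and are related to CD20, the B cell protein encoded by Ms4a1. Ms4a4b is a T cell member that associates with the costimulatory receptor GITR, while Ms4a4c and Ms4a6c are also known from monocytes and macrophages. Id2 binds E protein transcription factors and keeps them off their DNA sites, the E-boxes.

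The sequences below show how alike the copies are, which bears on how far reads can tell them apart. All positions are in the mouse build mm10, with gene spans from RefSeq and strands from the GENCODE M21 annotation. On chromosome 15, Ly6e lies at chr15:74955025-74959904 on the plus strand, and Ly6a at chr15:74994877-74998031, Ly6c1 at chr15:75044018-75048920 and Ly6c2 at chr15:75108161-75112066 on the minus strand. On chromosome 19, all on the plus strand, Ms4a4c lies at chr19:11404717-11427246, Ms4a4b at chr19:11443558-11463549, Ms4a6c at chr19:11469353-11487182 and Ms4a6b at chr19:11518559-11530403. The members span 157.0 kb of the Ly6 cluster and 125.7 kb of the Ms4a cluster. The first 150 coding bases of the 3 closest pairs follow, 5′ to 3′ from the start codon, with the bases that differ within a pair in capitals.
Ly6c1: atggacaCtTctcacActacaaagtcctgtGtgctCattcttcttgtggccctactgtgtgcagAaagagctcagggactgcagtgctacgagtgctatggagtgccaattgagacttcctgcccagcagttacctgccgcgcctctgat
Ly6c2: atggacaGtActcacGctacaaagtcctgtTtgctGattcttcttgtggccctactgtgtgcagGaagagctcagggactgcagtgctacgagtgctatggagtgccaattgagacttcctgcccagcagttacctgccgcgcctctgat
Ms4a4b: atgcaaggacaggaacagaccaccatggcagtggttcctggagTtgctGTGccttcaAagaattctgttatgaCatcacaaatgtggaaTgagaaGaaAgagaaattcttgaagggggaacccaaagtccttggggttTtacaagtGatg
Ms4a4c: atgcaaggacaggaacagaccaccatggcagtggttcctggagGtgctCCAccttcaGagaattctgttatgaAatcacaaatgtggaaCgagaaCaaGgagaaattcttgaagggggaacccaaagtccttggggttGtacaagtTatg
Ms4a6b: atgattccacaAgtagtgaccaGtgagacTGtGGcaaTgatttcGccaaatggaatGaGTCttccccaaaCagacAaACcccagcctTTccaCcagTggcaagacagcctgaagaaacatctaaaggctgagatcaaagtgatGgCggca
Ms4a6c: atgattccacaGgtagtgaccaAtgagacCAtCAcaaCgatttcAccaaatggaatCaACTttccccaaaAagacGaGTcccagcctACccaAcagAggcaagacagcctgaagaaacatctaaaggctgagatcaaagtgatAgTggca

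These stretches differed at 6 bases between Ly6c1 and Ly6c2, at 11 between Ms4a4b and Ms4a4c and at 22 between Ms4a6b and Ms4a6c. Over whole coding sequences, Ly6c1 and Ly6c2 were 97.7% identical (9 of 393 bases differed), Ms4a4b and Ms4a4c 91.7% (56 of 678) and Ms4a6b and Ms4a6c 85.8% (91 of 642 aligned). Ly6a was 83.7% identical to Ly6c1, while Ly6e was 55.8% to 58.3% identical to the other 3 Ly6 genes. Of all 50-base stretches of 1 RefSeq-matched GENCODE transcript per gene, 36.7% in Ly6c1 and 33.0% in Ly6c2 also stood in another gene, against 4.19% in Ms4a4b, 8.48% in Ms4a4c, 8.91% in Ms4a6b, 10.04% in Ly6a, 11.3% in Ms4a6c and 0% in Ly6e. The Ms4a4b transcript used for this is 4750 bases long, while the deposited tables give Ms4a4b a length of 1282, so the share among the bases that were counted may be higher than 4.19%. The expected count of Ly6e, the number of reads that the authors' program assigns after dividing those that fit several genes, was a whole number (within 0.005) in 6 of 6 libraries. That of Ms4a6c was whole in 1 library and those of the other members in 0. No source used here gives the read length, and the values of the 3 pairs are uncertain to the extent that reads could be divided wrongly between the copies.

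The libraries held 7990095, 7699181 and 7751207 expected counts in KO and 8383034, 8495123 and 8307284 in WT. Id2, the targeted gene, stood at 1.67, 2.64 and 2.12 FPKM in KO libraries, against 370.98, 146.76 and 149.01 FPKM in WT libraries (log2 fold change -6.72, edgeR adjusted p = 8.47e-05), as the labels say. FPKM is the count scaled by transcript length and library size, so levels can be compared between genes. Cd8a lay between 196.14 and 231.77 FPKM in KO and between 199.92 and 221.29 FPKM in WT. Of the 12 CD8+ T cell identity genes tested, 0 were higher in KO and 1, Thy1, was lower (log2 fold change -0.35, edgeR adjusted p = 0.0397). Among all 10890 genes tested, 1297 (11.9%) passed an adjusted p of 0.05, 342 (3.14%) higher and 955 (8.77%) lower in KO. Markers of B cells differed widely between libraries of the same group. The summed level of the 14 listed B cell markers of 16 was 628, 2424 and 556 FPKM in KO 1, 2 and 3 and 816, 2573 and 3003 FPKM in WT 1, 2 and 3, so it was high in 1 KO library and 2 WT libraries.

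Of the 8 genes, all passed the filter on low values, and 3 changed between genotypes: Ly6a and Ms4a4b were lower in KO cells and Ms4a4c was higher. Ly6a fell most, 2.82-fold, while Ms4a4b fell 1.47-fold and its neighbour Ms4a4c rose 1.37-fold. Ly6c1, Ly6c2, Ly6e, Ms4a6b and Ms4a6c did not pass the test. The 3 of 8 called stand beside 11.9% of all genes tested, the 2 lower beside 8.77% and the 1 higher beside 3.14%. The groups did not overlap in FPKM for the same 3 of 8 genes, beside 32.1% of all genes tested. The median log2 fold change was -0.18 over the 4 Ly6 genes and -0.0049 over the 4 Ms4a genes, against 0.01 over all genes tested. With 1 library left out, 0 to 2 of the 8 were lower and 0 to 1 higher. The lower count was 1 without KO 1 and without WT 3 and 0 without KO 3. The higher count was 0 without KO 1, without WT 2 and without WT 3. In bulk RNA, fewer cells of a type and less RNA per cell cannot be told apart.

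**Figure D1:**
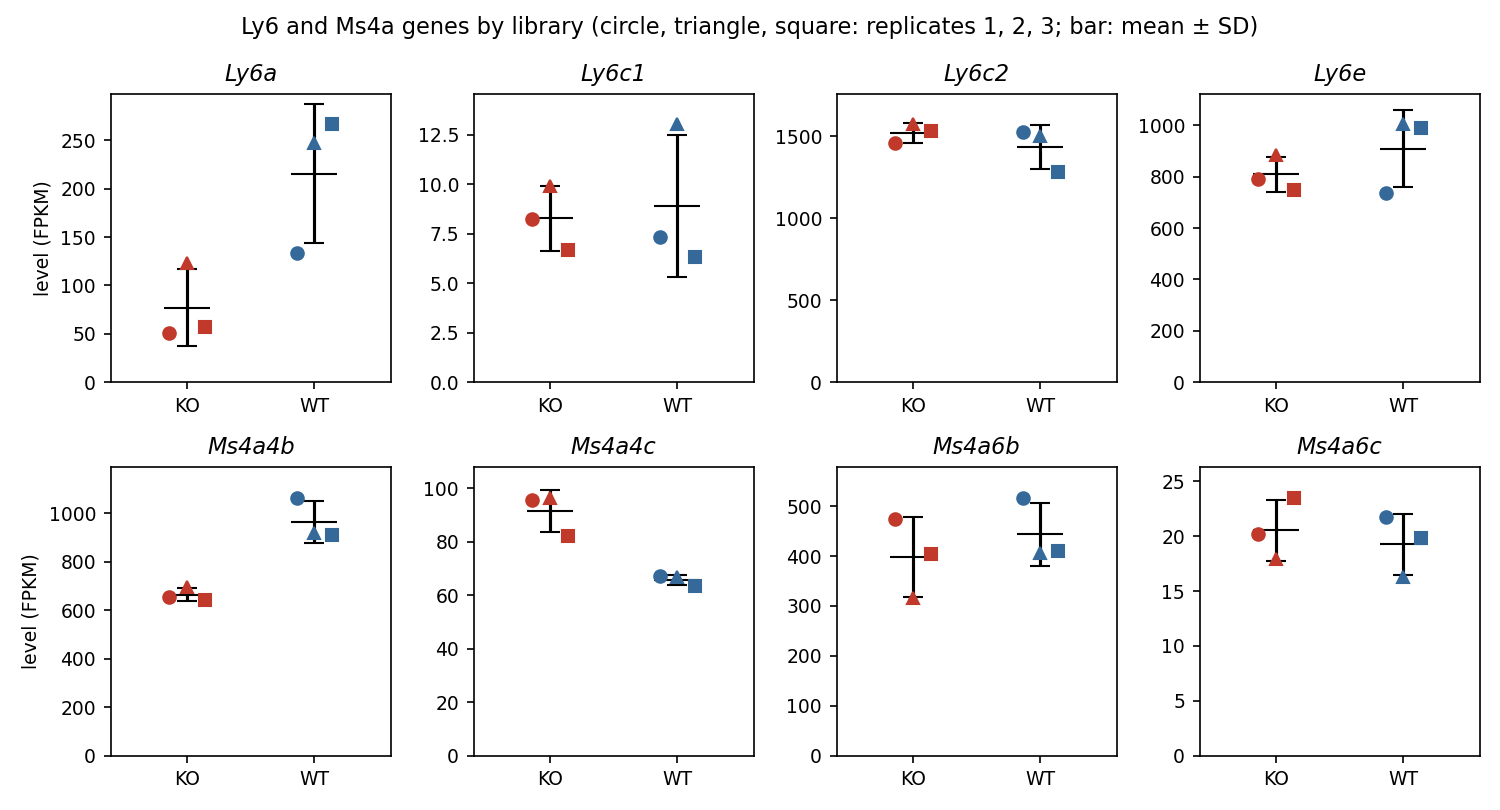
Level of each of the 8 genes in FPKM, with KO libraries on the left (red) and WT libraries on the right (blue), 3 each. Circles, triangles and squares are replicates 1, 2 and 3 and bars are the mean ± SD; the groups are apart for Ly6a, Ms4a4b and Ms4a4c and overlap for the other 5.

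Among the Ly6 genes, Ly6a (Sca-1) was the one that changed. Its level was 50.77, 122.93 and 56.95 FPKM in KO libraries 1 to 3 and 133.22, 247.21 and 266.51 FPKM in WT libraries 1 to 3. All KO libraries lay below all WT libraries, although KO 2, the highest KO library, came close to WT 1, the lowest WT library. The means were 76.9 ± 40.0 FPKM in KO and 216 ± 72.0 FPKM in WT (SD, n = 3 each). The log2 fold change was -1.50 with a standard error of 0.320 and a 95% interval of -2.21 to -0.78 (edgeR adjusted p = 0.0138). The call rested on several libraries: the log2 fold change was -1.27 without KO 1 (edgeR adjusted p = 0.0604), -1.32 without KO 3 (edgeR adjusted p = 0.0757) and -1.32 without WT 3 (edgeR adjusted p = 0.0661). Without KO 2 the change was -1.97 (edgeR adjusted p = 0.000727).

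Ly6a was high within each group where B cell markers were high. KO 2 was the highest KO library for both, with KO 1 and KO 3 close together at the low end, and WT 1 was the lowest and WT 3 the highest WT library for both. In 2 pairs of libraries with nearby B cell marker sums, the KO library was the lower in both Ly6a and the sum. Ly6a was 122.93 FPKM in KO 2 (marker sum 2424 FPKM) against 247.21 FPKM in WT 2 (marker sum 2573 FPKM). It was 50.77 FPKM in KO 1 (628 FPKM) against 133.22 FPKM in WT 1 (816 FPKM). With the log2 marker sum as a covariate in edgeR, the change of Ly6a was -1.04 with a standard error of 0.113 (adjusted p = 0.000254). That fit called 4 of the 8 genes, beside 11% of all genes tested. The covariate fit rests on 6 libraries, and the part of B cells in the Ly6a values was not tested. Of the 13 B cell markers tested, 0 passed the edgeR test in either direction and 0 had an unadjusted p under 0.05, and their median log2 fold change was -0.87, with all 13 below 0. The most abundant were the antigen presentation genes Cd74 and H2-Aa and the B cell receptor subunit Cd79a. Dendritic cell markers, mostly Bst2, Ccr9 and Irf8, which T cells also express, summed to between 146 and 197 FPKM in KO and between 229 and 246 FPKM in WT. Of the 7 tested, 4 were lower in KO (57.1%, beside 8.77% of all genes tested), among them Bst2. The other markers called were less abundant than Bst2, Ccr9 and Irf8. The median log2 fold change of the 7 dendritic cell markers was -0.54, with 6 below 0. Ccr9 was higher in each KO library than in each WT library (log2 fold change 0.47, edgeR adjusted p = 0.0688). Irf8 did not pass (-0.13, edgeR adjusted p = 0.721). Plasma cell markers, mostly Xbp1 and Irf4, summed to 92.46 to 110.93 FPKM in KO and 106.32 to 126.28 FPKM in WT. Of the 6 tested, 2 were lower (33.3%, beside 8.77% of all genes tested). Xbp1 and Irf4 were not among them (log2 fold changes 0.02 and -0.26), nor was Mzb1 (-1.66, edgeR adjusted p = 0.102). Mzb1 stood at 2.06, 8.14 and 2.69 FPKM in KO libraries, against 3.93, 18.11 and 18.39 FPKM in WT libraries. The median log2 fold change of the 6 plasma cell markers was -1.03, with 5 below 0.

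**Figure D2:**
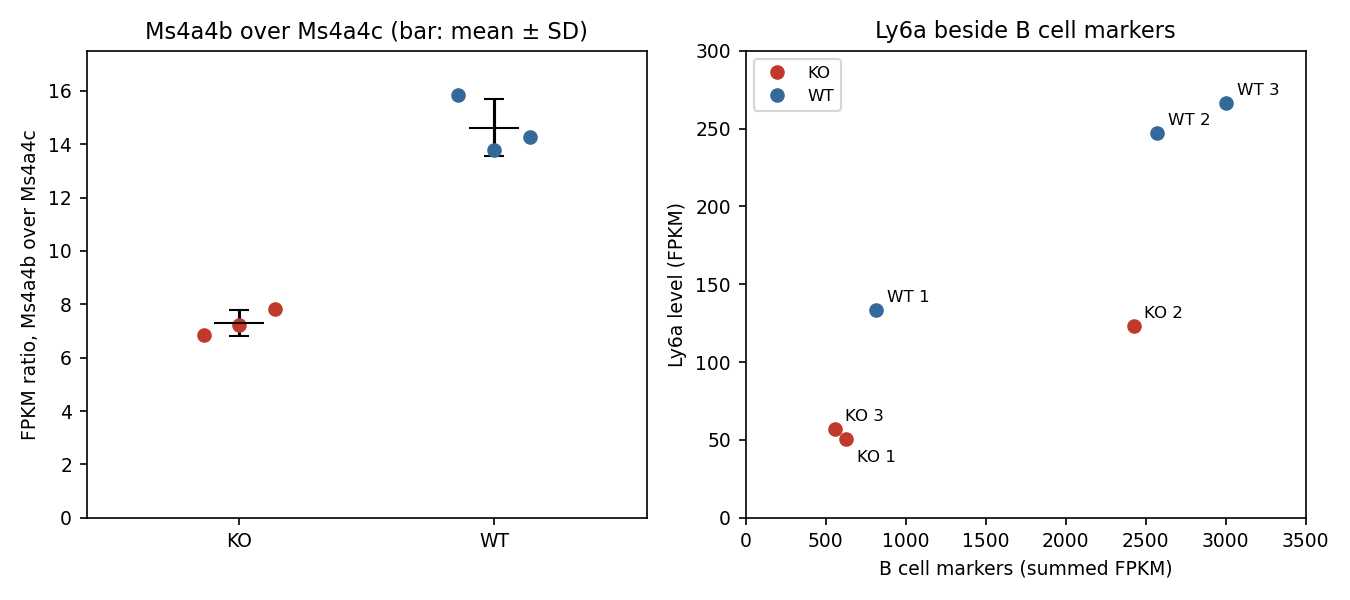
Left, the FPKM ratio of Ms4a4b to Ms4a4c in 3 KO (red) and 3 WT (blue) libraries with the mean ± SD: 6.85 to 7.81 in KO and 13.8 to 15.8 in WT. Right, the Ly6a level in FPKM against the summed FPKM of the 14 listed B cell markers, 1 point per library: KO 2, WT 2 and WT 3 were high in the markers and the highest of their genotype in Ly6a. KO 1 and KO 2 lay below WT 1 and WT 2 in Ly6a, and also lower in the marker sum.

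Ly6c2, the main source of Ly6C transcript here, was the most abundant of the 8 genes in both genotypes. Its level was 1457.25, 1572.55 and 1530.54 FPKM in KO libraries, against 1523.76, 1499.97 and 1281.91 FPKM in WT libraries. The groups overlapped, and the means were 1520 ± 58.4 FPKM in KO and 1435 ± 133 FPKM in WT (SD, n = 3 each). The log2 fold change was 0.07 with a 95% interval of -0.17 to 0.30 (edgeR adjusted p = 0.735), and it was -0.017 without WT 3. Ly6c1, the near-identical copy, stood at 8.23, 9.94 and 6.67 FPKM in KO libraries, against 7.36, 13.03 and 6.32 FPKM in WT libraries. WT 2 was the highest and WT 3 the lowest library, with the KO libraries between them. The log2 fold change of Ly6c1 was -0.17 with a wide 95% interval of -0.90 to 0.56 (edgeR adjusted p = 0.781), and it was 0.25 without WT 2. Between 36.25 and 82.25 expected counts per library lay behind these levels, against 9113 to 10935 for Ly6c2, so a small wrong share of Ly6c2 reads could move Ly6c1. Summed over both copies, the log2 fold change was 0.065 (edgeR adjusted p = 0.74).

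Ly6e came next after Ly6c2 among the Ly6 genes. It stood at 792.57, 884.81 and 749.89 FPKM in KO libraries, against 734.68, 1003.18 and 987.66 FPKM in WT libraries. The lowest of the 6 was WT 1, and the groups overlapped. The means were 809 ± 69.0 FPKM in KO and 909 ± 151 FPKM in WT (SD, n = 3 each), and the log2 fold change was -0.18 with a 95% interval of -0.45 to 0.08 (edgeR adjusted p = 0.364). Of the summed FPKM of the 4 Ly6 genes, Ly6a made up 3.13% ± 1.41 in KO and 8.33% ± 2.52 in WT (SD, n = 3 each). Ly6c2 made up 63.0% ± 2.29 in KO and 56.1% ± 6.73 in WT. The sum itself was 2414 ± 153 FPKM in KO and 2568 ± 184 FPKM in WT, so the change of Ly6a was a small part of the family's transcripts.

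In the Ms4a family the 2 changes went in opposite directions in genes that lie next to each other. Ms4a4b, the GITR-associated T cell protein, stood at 653.83, 695.49 and 642.93 FPKM in KO libraries, against 1063.41, 917.87 and 909.08 FPKM in WT libraries. Each KO library lay below each WT library, with a wide gap. The means were 664 ± 27.7 FPKM in KO and 963 ± 86.7 FPKM in WT (SD, n = 3 each). The log2 fold change was -0.56 with a standard error of 0.109 and a 95% interval of -0.80 to -0.31 (edgeR adjusted p = 0.00939). Without KO 3 it was -0.53 and did not pass (edgeR adjusted p = 0.0673).

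Ms4a4c, its closest copy by sequence, stood at 95.51, 96.46 and 82.34 FPKM in KO libraries, against 67.18, 66.69 and 63.66 FPKM in WT libraries. Here each KO library lay above each WT library. The means were 91.4 ± 7.89 FPKM in KO and 65.8 ± 1.91 FPKM in WT (SD, n = 3 each). The log2 fold change was 0.46 with a standard error of 0.10035 and a 95% interval of 0.23 to 0.68 (edgeR adjusted p = 0.0159). It was 0.42 without KO 1 (edgeR adjusted p = 0.0557), 0.45 without WT 2 (edgeR adjusted p = 0.0515) and 0.43 without WT 3 (edgeR adjusted p = 0.0718).

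The FPKM ratio of Ms4a4b to Ms4a4c was 6.85, 7.21 and 7.81 in KO libraries and 15.8, 13.8 and 14.3 in WT libraries, with means of 7.29 ± 0.486 in KO and 14.6 ± 1.08 in WT (SD, n = 3 each). The ratio was the lower in every KO library. Summed over both genes, the log2 fold change was -0.44 with a standard error of 0.107 (edgeR adjusted p = 0.027), which follows Ms4a4b because it holds most of the counts. Ms4a4c is the gene most exposed to a wrong division of reads in this pair, since it held 910 to 1313 expected counts per library, against 6333 to 11333 for Ms4a4b. The opposite directions hold between the genotypes. KO 2 was the highest and KO 3 the lowest KO library for both genes, and WT 1 was the highest and WT 3 the lowest WT library for both. For Ms4a4c, however, KO 2 and KO 1 (96.46 and 95.51 FPKM) and WT 1 and WT 2 (67.18 and 66.69 FPKM) were close. The order of 3 libraries cannot show whether the genes vary together. The part of the division of reads in these values was not tested.

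**Figure D3:**
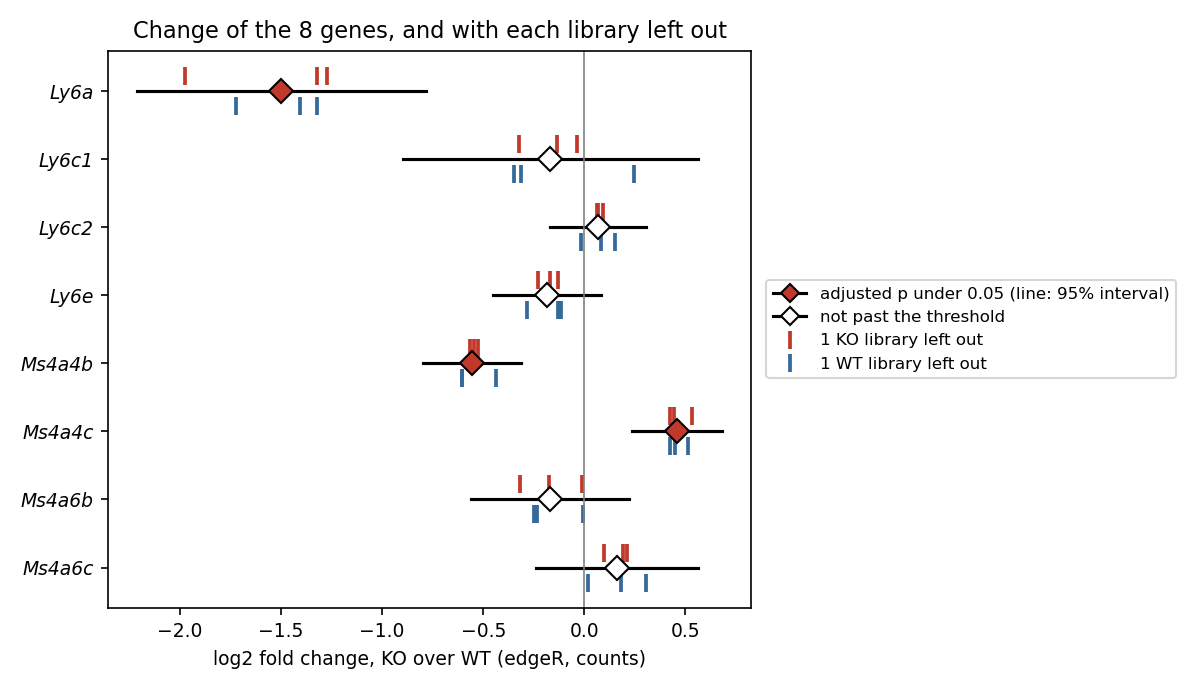
Log2 fold change, KO over WT, of the 8 genes from edgeR on counts (diamonds, filled where the adjusted p is under 0.05) with 95% intervals (lines); ticks give the value with 1 KO library (red, above) or 1 WT library (blue, below) left out. Ly6a and Ms4a4b stayed below 0 and Ms4a4c above 0 in each of these fits, while the ticks of Ly6c1 and Ly6c2 lie on both sides of 0.

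The start regions of Ms4a4b and Ms4a4c are shown because these neighbours moved in opposite directions. The 250 bases before a RefSeq transcript start (GRCm38.p6, plus strand, 5′ to 3′) are chr19:11443308-11443557 for Ms4a4b and chr19:11407411-11407660 for Ms4a4c. The Ms4a4b stretch ends just before the gene's span, which starts at 11443558. The Ms4a4c stretch lies inside the gene's span, which starts at 11404717, and the bases before that outer start were not searched. The 2 stretches therefore stand at different places relative to the outer starts of their genes. Capitals mark any match to the general E-box CANNTG.
Ms4a4b: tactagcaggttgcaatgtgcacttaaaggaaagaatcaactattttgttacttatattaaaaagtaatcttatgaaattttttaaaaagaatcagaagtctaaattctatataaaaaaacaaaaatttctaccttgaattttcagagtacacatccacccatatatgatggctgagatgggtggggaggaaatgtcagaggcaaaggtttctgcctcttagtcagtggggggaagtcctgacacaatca
Ms4a4c: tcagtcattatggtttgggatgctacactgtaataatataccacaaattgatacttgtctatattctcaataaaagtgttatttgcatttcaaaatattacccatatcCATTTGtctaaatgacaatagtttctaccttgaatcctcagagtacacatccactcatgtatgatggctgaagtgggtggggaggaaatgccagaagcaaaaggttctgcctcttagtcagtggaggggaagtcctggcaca

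Each window searched was 300 bases, the 250 before and the 50 after a start, on both strands. The pair's windows were 76.9% identical over the aligned bases. Ms4a4c held 1 CANNTG match, at position -142 from the start, and Ms4a4b held 0, while 72.3% of all 32851 mouse promoters in the RefSeq table held at least 1. Promoters were matched for 6 of the 8 genes, leaving out Ly6a and Ly6e. The E-box form CAGCTG, a subset of CANNTG that E proteins are known to bind, stood in the windows of Ly6c1 and Ly6c2 (16.3% of all promoters) and in those of no Ms4a member. None of the windows held CAGGTG (20.2% of all promoters), the core of the interferon-stimulated response element, written GAAA and again GAAA after a gap of NN (3.44%), or the STAT-type element TTCNNNGAA (8.3%). A match describes the letters only and is not a binding site.

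Ms4a6b, an abundant T cell member of the family, stood at 474.71, 315.6 and 404.82 FPKM in KO libraries, against 516.39, 405.24 and 409.89 FPKM in WT libraries. KO 2 was the lowest and WT 1 the highest library, and the groups overlapped. The log2 fold change was -0.17 with a 95% interval of -0.56 to 0.22 (edgeR adjusted p = 0.577), and with the B cell marker sum as a covariate it was -0.42 and passed (edgeR adjusted p = 0.04). Ms4a6c, its low copy, stood at 20.2, 17.95 and 23.5 FPKM in KO libraries, against 21.74, 16.27 and 19.82 FPKM in WT libraries. The groups overlapped here too. Its log2 fold change was 0.16 with a 95% interval of -0.24 to 0.56 (edgeR adjusted p = 0.613). Counted together, the pair gave -0.16 (edgeR adjusted p = 0.596). Of the summed FPKM of the 4 Ms4a genes, Ms4a4b made up 56.7% ± 4.70 in KO and 64.6% ± 0.798 in WT, and Ms4a4c 7.80% ± 0.724 in KO and 4.44% ± 0.37 in WT (SD, n = 3 each). The sum was 1174 ± 62.1 FPKM in KO and 1492 ± 153 FPKM in WT.

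By level, the KO order was Ly6c2, Ly6e, Ms4a4b, Ms4a6b, Ms4a4c, Ly6a, Ms4a6c and Ly6c1, from the highest down. The WT order was Ly6c2, Ms4a4b, Ly6e, Ms4a6b, Ly6a, Ms4a4c, Ms4a6c and Ly6c1. In KO libraries the neighbours Ms4a4c and Ly6a overlapped, and in WT libraries Ms4a4b and Ly6e did; every other pair of neighbours was apart in every library of its group. By mean WT level, Ly6c2, Ms4a4b and Ly6e stood at the 99.7th, 99.6th and 99.5th percentile of the genes listed, and Ly6c1 at the 62.8th. Both families were represented in these cells by a few very abundant transcripts and by copies of them at far lower levels, with a ratio of Ly6c2 to Ly6c1 of 188 ± 36.9 in KO and 175 ± 51.9 in WT and of Ms4a6b to Ms4a6c of 19.4 ± 3.52 in KO and 23.1 ± 2.19 in WT (SD, n = 3 each).

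The rest of the families was read from lists. Of 37 other Ly6 family genes, 20 were listed and 9 were tested. None of the 9 passed in edgeR (0 higher, 0 lower, beside 3.14% and 8.77% of all genes tested), and 4 had an unadjusted p under 0.05: Ly6d, Ly6i, Ly6k and Plaur. DESeq2 called 1 higher, Ly6k, and 1 lower, Plaur. The median log2 fold change of the 9 was -0.36. Plaur, the urokinase receptor, stood at 38.77, 52.01 and 28.79 FPKM in KO libraries, against 43.52, 101.34 and 67.43 FPKM in WT libraries, with overlap (log2 fold change -0.84, edgeR adjusted p = 0.0754). It passed without KO 2 (edgeR adjusted p = 0.0354) and without WT 1 (edgeR adjusted p = 0.0173). Ly6k stood at 18.82, 14.35 and 16.31 FPKM in KO libraries, all above the 12.85, 7.98 and 5.28 FPKM in WT libraries (log2 fold change 0.90, edgeR adjusted p = 0.104), and it passed without WT 1 (edgeR adjusted p = 0.0185).

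Ly6d, a gene of B lineage progenitors and B cells, stood at 11.19, 40.27 and 8.84 FPKM in KO libraries, against 18.48, 53.3 and 67.8 FPKM in WT libraries, high in the libraries that were high in B cell markers. Its log2 fold change was -1.23 (edgeR adjusted p = 0.181), and it passed without KO 2 (log2 fold change -2.19, edgeR adjusted p = 0.013). Ly6i, whose transcripts hold 31 of the 50-base stretches of Ly6a, had 0.3 to 1.28 FPKM in KO and 1.61 to 2.51 FPKM in WT (log2 fold change -1.41, edgeR adjusted p = 0.102). The neutrophil marker Ly6g was at 1.82 to 3.11 FPKM in KO and 2.11 to 4.22 FPKM in WT. The 4 listed neutrophil markers, mostly Cxcr2, summed to 12.86 to 18.18 FPKM in KO and 12.47 to 15.68 FPKM in WT. Of the 3 tested, 0 passed in edgeR in either direction. Csf3r was higher in each KO library than in each WT library (log2 fold change 0.55, edgeR adjusted p = 0.151). Other neutrophil markers, such as S100a9, Camp and Ngp, were not listed in any library. Ly6f, Ly6g5b, Ly6m and Lypd6b had log2 fold changes of -0.60, 0.62, 0.22 and 0.39, and none passed.

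Of 19 other Ms4a family genes, 11 were listed and 6 tested, and 0 passed in edgeR or in DESeq2, with 0 at an unadjusted p under 0.05, and their median log2 fold change was -0.76. The most abundant was Ms4a1 (CD20), at 9.05, 24.08 and 6.38 FPKM in KO libraries, against 10.76, 25.8 and 38.83 FPKM in WT libraries. It too was high where B cell markers were high (log2 fold change -0.95, edgeR adjusted p = 0.242), and it passed without KO 2 (log2 fold change -1.68, edgeR adjusted p = 0.0287). Ms4a4a, next to Ms4a4c, had 7.24 to 8.95 FPKM in KO and 6.18 to 7.45 FPKM in WT (log2 fold change 0.30, edgeR adjusted p = 0.417). Ms4a6d, known from macrophages, and Ms4a4d had log2 fold changes of -0.01 and -0.98, and Tmem176a and Tmem176b of -0.83 and -0.69. Monocyte and macrophage markers summed to 44.55 to 53.45 FPKM in KO and 58.82 to 103.27 FPKM in WT, of which Lyz2 was 26.54 to 29.97 FPKM in KO and 19.31 to 28.18 FPKM in WT. Cd68 stood at 4.5, 5.3 and 4.22 FPKM in KO libraries, each below the 12.39, 6.11 and 7.79 FPKM in WT libraries. Its log2 fold change was -0.97 (edgeR adjusted p = 0.0682). Over the 7 markers tested the median was -0.52, with 5 below 0 and 3 at an unadjusted edgeR p under 0.05. The myeloid marker Fcgr1 was not listed, and 1 of the 7 tested (14.3%, beside 8.77% of all genes tested), Ccr2, which T cells also express, was lower. Ccr2 stood at 3.31, 7.29 and 3.86 FPKM in KO libraries, against 42.65, 22.83 and 26.13 FPKM in WT libraries. Without Ccr2, a choice made after its values were seen, the sum was 41.24, 46.16 and 42.49 FPKM in KO libraries, against 60.62, 35.99 and 35.22 FPKM in WT libraries, so the groups overlapped.

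**Figure D4:**
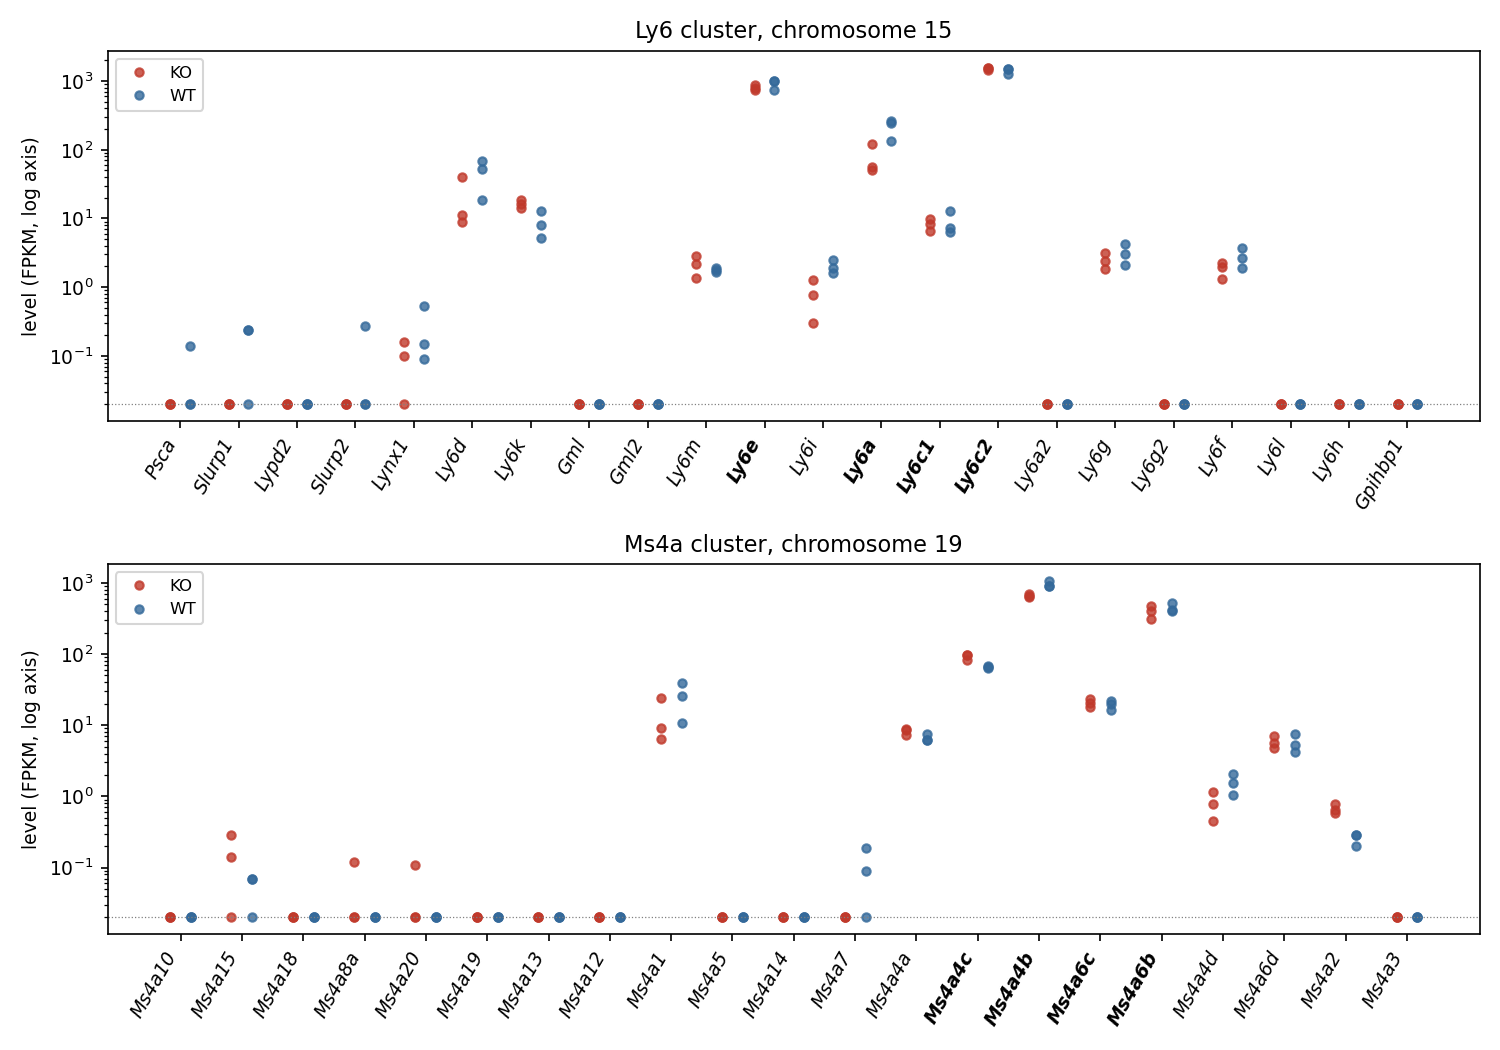
Level in FPKM (log axis) of every Ly6 cluster gene on chromosome 15 (22 genes) and every Ms4a cluster gene on chromosome 19 (21 genes) in genome order, KO (red) left of WT (blue), 1 point per library; names in bold are the 8 genes described, and points on the dotted line are genes not listed in that library. Ly6e, Ly6c2, Ms4a4b and Ms4a6b stand at or above 315.6 FPKM in every library, while 8 genes of the Ly6 cluster and 8 of the Ms4a cluster were not listed in any library.

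Other GPI-anchored surface genes moved in both directions. Of the 16 tested in a list of 29, 2 were higher (12.5%, beside 3.14% of all genes tested) and 4 lower in KO (25%, beside 8.77%), and the median log2 fold change was -0.20. Plaur stands in this list and among the other Ly6 genes, so where a fit called it, it counts in both. Cd48, a ligand of CD2 and 2B4, fell most (84.0, 88.69 and 79.15 FPKM in KO libraries, against 290.06, 176.49 and 239.46 FPKM in WT libraries; log2 fold change -1.51, edgeR adjusted p = 0.00057). Cd160, a receptor for HVEM, fell by 0.76 and Bst2, or tetherin, by 0.54 on the log2 scale, and the fourth was Thy1, named after its value was seen. The 2 that rose were Izumo1r, or folate receptor 4 (log2 fold change 1.03), and the death receptor Tnfrsf10b (0.44), which the list holds although it has a transmembrane segment and not this anchor. The lower count was 2 without KO 1, without KO 3 and without WT 2. The higher count was 0 without KO 1, without KO 3 and without WT 3, and 1 without WT 2.

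Interferon-inducible genes, among which Ly6a and Ly6e are known, were counted without the 8 genes. Of 70 tested in edgeR, 0 were higher and 7 lower in KO. The 7 are 10% of the list's tested genes, beside 8.77% lower among all genes tested, and 1 of them, Bst2, also stands in the GPI and dendritic cell lists. The median log2 fold change was -0.23. The 3 with the smallest p were Epsti1 (log2 fold change -1.13, edgeR adjusted p = 0.000334), the mitochondrial nucleotide kinase Cmpk2 (-1.16, edgeR adjusted p = 0.00232) and Phf11b (-0.74, edgeR adjusted p = 0.0048). The lower count was 3 without KO 1 and without KO 3, 26 without KO 2, and the higher count was 2 without WT 1. Of 26 genes of resting and memory CD8+ T cells, 9 were higher (34.6%, beside 3.14% of all genes tested) and 0 lower in KO (beside 8.77%), and the median log2 fold change was 0.38. The 3 with the smallest p were the transcription factors Myb (1.24, edgeR adjusted p = 0.00049) and Bach2 (0.74, edgeR adjusted p = 0.00158) and the endosomal protein gene Nsg2 (0.65, edgeR adjusted p = 0.00203). That count was 5 without KO 1, 4 without KO 3, 5 without WT 2 and 4 without WT 3. NK cell markers summed to 38 to 87 FPKM in KO and 579 to 1330 FPKM in WT. In WT libraries most of this was Gzma, a cytotoxic T cell gene as well, at 1288.67, 559.57 and 829.65 FPKM. In KO libraries Gzma stood at 19.53, 65.81 and 17.13 FPKM. It was the 1 lower of 5 tested (20%, beside 8.77% of all genes tested), with 0 higher. Klre1 (-1.74, edgeR adjusted p = 0.053) and Eomes (0.53, edgeR adjusted p = 0.194) did not pass. CD4+ T cell and regulatory T cell markers summed to 120 to 124 FPKM in KO and 118 to 170 FPKM in WT. Of the 7 tested, 2 were higher (28.6%, beside 3.14% of all genes tested) and 2 lower (28.6%, beside 8.77%). Ctla4 was higher (log2 fold change 0.49, edgeR adjusted p = 0.0222). Il2ra (-2.02, edgeR adjusted p = 0.000185) and Tnfrsf4 (-1.125, edgeR adjusted p = 0.0126) were lower. Ly6a and Ly6c1 are also known from endothelial cells, whose markers summed to 47.8 to 52.67 FPKM in KO and 42.96 to 49.98 FPKM in WT, mostly Pecam1, with Kdr, Tek, Tie1, Emcn and Cldn5 not listed. Pecam1 and Eng did not pass (log2 fold changes 0.17 and -0.05). Egfl7, not tested, had 0.11 to 0.33 FPKM in KO and 0.88 to 1.84 FPKM in WT.

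The gene whose log2 CPM most resembled each member over the 6 libraries is a description of so few libraries that share one genotype contrast. For Ly6a these were Gorasp2 and Ccnh (Pearson r = 0.996 and 0.994), for Ms4a4b Ggh and Calr (0.998 and 0.995) and for Ms4a4c Snapin and Prkd3 (0.995 and 0.992). For Ms4a6b the most alike was the CD8 beta chain gene Cd8b1 (r = 0.992), which stood at 754.62, 547.91 and 685.68 FPKM in KO libraries and 794.12, 690.04 and 667.96 FPKM in WT libraries, lowest in KO 2 like Ms4a6b. For Ly6c2 these were Xlr4b and Mir22hg (0.985 and 0.983), for Ly6c1 Cdk5rap1 and Fbxo46 (0.995 and 0.986), for Ly6e Rbpj and Arxes2 (0.993 and 0.992) and for Ms4a6c Gpr157 and Frmd3 (0.999 and 0.988).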

How the data were processed

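Total RNA of sorted CD8+ T cells was sequenced by an Illumina protocol, per the labels' protocols, in 3 KO and 3 WT samples. CASAVA, Bowtie2 and RSEM were used with mm10, per the submitters' processing notes, which give no versions. Each deposited table gives an expected count and an FPKM value per gene, per the file headers, and a gene missing from a table was taken as 0. Strand use and read length are not stated in the sources used here, and antisense genes cannot be separated. Of 16749 gene numbers, 16707 had a symbol in the RefSeq table.

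The expected counts, rounded to integers and TMM-scaled, were tested two-sided in edgeR 4.0.16 (R 4.3.3) by its quasi-likelihood method on 10890 genes with FPKM of at least 1 in at least 3 libraries (5859 left out), with Benjamini-Hochberg adjustment over all of them and 0.05 as the threshold. The fit's biological coefficient of variation was 0.156. Intervals are 95% from the same fit. The 8 genes, the lists and the tests were chosen with earlier results of these data known. Named besides the 8 genes and Id2 were the tested Ly6 and Ms4a family genes, up to 3 called genes per direction and list with the smallest p, the 3 most abundant markers per list and the 2 genes most like each member. Further genes, such as Thy1 and markers not listed, were named after their values were seen. Coding sequences came from GENCODE M21 transcripts (for each gene the one matched to its shortest-numbered RefSeq mRNA accession), aligned with Biopython 1.88, and promoters from RefSeq (GRCm38.p6). The fitting was tested on simulated data. Counts of libraries of a group differed by a chi-square of at least 5.55 per degree of freedom, so none was a duplicate. The alternatives tried were a DESeq2 1.42.0 fit, edgeR with DESeq2 size factors, limma 3.58.1 on log2(FPKM + 1) and log2(FPKM + 0.1), no filter, FPKM of at least 5, a replicate block, the B cell marker covariate, summed pairs and each library left out. Tables and figures used pandas 2.3.3 and matplotlib 3.10.9 in Python 3.11.15.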

Additional observations from a re-analysis of the deposited data

How the results depend on the processing

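Ly6a, Ms4a4b and Ms4a4c kept their direction and their calls under DESeq2, its size factors in edgeR, limma at both pseudocounts, no filter, the stricter filter, the replicate block and the B cell covariate. Genes called in all numbered 1105 to 1563 under these, against 1297. With the B cell covariate, Ly6c1 turned to 0.049, Ms4a6b passed at -0.42, and 1 GPI gene was higher. With the pair summed, Ly6c1 turned to 0.065, Ms4a4c to -0.44 and Ms4a6c to -0.16, since each sum follows the abundant copy. DESeq2 called 1 other Ly6 gene higher, 1 lower and 13 interferon-inducible genes lower, and no filter gave 1 other Ly6 gene and 13 interferon-inducible genes lower. The causes were not tested.

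With the replicate block, Ly6a was -1.54, Ms4a4b -0.55 and Ms4a4c 0.46, all still past the threshold, with 1183 genes called. Under it 1 other Ly6 gene was lower, 1 GPI gene higher and 13 interferon-inducible genes lower. Deviations of same-numbered libraries from their group means correlated at 0.118, 0.075 and -0.0303, and those of differently numbered libraries at -0.187 to 0.135. The labels do not say whether the numbers pair the samples, and with 3 libraries a group these correlations cannot decide it.

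Leaving out each library gave log2 fold changes of -1.97 to -1.27 for Ly6a, -0.61 to -0.44 for Ms4a4b, 0.42 to 0.53 for Ms4a4c, -0.35 to 0.25 for Ly6c1 and -0.017 to 0.15 for Ly6c2. It gave 601 to 1562 genes called, the fewest without KO 3 and then 685 without WT 3, with 84 to 480 higher and 517 to 1082 lower. Of the 8 genes 0 to 1 were higher and 0 to 2 lower. Higher and lower were 0 to 1 and 0 to 2 of the other Ly6 genes, 0 to 3 and 2 to 5 of the GPI genes and 0 to 2 and 3 to 26 of the interferon-inducible genes. Of the other Ms4a genes 0 to 1 were lower, and of the resting and memory genes 4 to 10 were higher. With 3 libraries a group and Ly6c1 at 36.25 to 82.25 expected counts, the data do not limit its change beyond -0.90 to 0.56.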
